A study of Mus musculus with 12 samples.

Results

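The Cyp2a and Cyp2b genes encode cytochrome P450 enzymes and lie in a cluster on mouse chromosome 7. The members described here are the 7 genes of these subfamilies named Cyp2a5, Cyp2a4, Cyp2a12, Cyp2a22, Cyp2b10, Cyp2b9 and Cyp2b13, taken by gene symbol from the deposited count table of 35275 genes, 4 of them Cyp2a and 3 Cyp2b genes. RNA was sequenced from frozen livers of male C57Bl/6J mice aged 13 weeks, which had received a diet containing 0.5% norUDCA for 1 week (6 libraries, replicates 9, 10, 11, 12, 13 and 20) or chow (6 libraries, replicates 2, 3, 7, 8, 16 and 17). NorUDCA is ursodeoxycholic acid with a shortened side chain, and all mice were labelled WT. The sources do not state that each library is a separate animal, so p-values measure the spread between libraries, and they name no sequencing batch. Whole liver was used, in which fewer cells of a type and less RNA per cell cannot be told apart.

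These enzymes insert oxygen into drugs, steroids and other lipophilic substrates in the endoplasmic reticulum, mainly of hepatocytes. Cyp2b10 is the classical target of the nuclear receptor CAR, which responds to phenobarbital-like drugs. Cyp2a5 is the mouse coumarin hydroxylase and also oxidizes nicotine, and Cyp2a4 is a close relative that hydroxylates testosterone. Cyp2b9 and Cyp2b13 are known in mice as genes expressed mainly in female liver, and Cyp2a12 hydroxylates steroids and bile acids.

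The start regions of 5 members are shown. Cyp2a5 and Cyp2a4 had near-identical start regions and differed widely in level, Cyp2b9 and Cyp2b13 had near-identical start regions and were both near-silent, and Cyp2b10 was the abundant Cyp2b member. They are upstream of the gene starts of the deposited table, run 5′ to 3′ on the plus strand of GRCm38.p6 and come from RefSeq, in which all 7 members matched. Capitals in the Cyp2a and in the Cyp2b9 and Cyp2b13 sequences mark the bases that differ within the pair, and capitals in Cyp2b10 mark the letters TTGCATAA.
Cyp2a5, chr7:26835089-26835304: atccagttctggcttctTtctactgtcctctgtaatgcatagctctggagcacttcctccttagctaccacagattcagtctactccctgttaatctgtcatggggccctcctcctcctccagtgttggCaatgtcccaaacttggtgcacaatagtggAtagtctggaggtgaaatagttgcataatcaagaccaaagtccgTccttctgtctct
Cyp2a4, chr7:26306942-26307189: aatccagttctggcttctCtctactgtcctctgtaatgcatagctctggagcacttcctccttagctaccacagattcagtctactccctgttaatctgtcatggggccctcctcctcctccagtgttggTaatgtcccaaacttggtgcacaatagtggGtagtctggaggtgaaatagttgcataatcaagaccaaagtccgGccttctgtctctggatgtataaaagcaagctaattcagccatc
Cyp2b9, chr7:26173159-26173408: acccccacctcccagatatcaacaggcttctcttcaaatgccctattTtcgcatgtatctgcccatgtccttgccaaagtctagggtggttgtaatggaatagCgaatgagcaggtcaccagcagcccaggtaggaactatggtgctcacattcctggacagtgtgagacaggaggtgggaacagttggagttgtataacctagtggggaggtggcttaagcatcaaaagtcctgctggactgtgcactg
Cyp2b13, chr7:26061245-26061494: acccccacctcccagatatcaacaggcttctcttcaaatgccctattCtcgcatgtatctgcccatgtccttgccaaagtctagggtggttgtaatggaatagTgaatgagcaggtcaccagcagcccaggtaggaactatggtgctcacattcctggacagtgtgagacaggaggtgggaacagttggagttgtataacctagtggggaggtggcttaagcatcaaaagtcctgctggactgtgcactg
Cyp2b10, chr7:25897408-25897619: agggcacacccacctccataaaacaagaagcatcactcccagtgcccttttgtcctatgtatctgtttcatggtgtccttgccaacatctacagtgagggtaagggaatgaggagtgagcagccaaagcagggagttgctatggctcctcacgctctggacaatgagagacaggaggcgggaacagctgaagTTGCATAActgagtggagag

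Of the 216 aligned bases of Cyp2a5 and Cyp2a4, 212 were identical (98.1%). With positions counted from the 5′ end of the printed Cyp2a5 sequence and the Cyp2a5 base first, the differences were T18C, C130T, A160G and T204G. Cyp2b9 and Cyp2b13 shared 248 of 250 bases (99.2%) and differed by T48C and C104T, counted in the same way from Cyp2b9. Cyp2a12 and Cyp2a22 were less alike, with 213 of 239 aligned columns identical (89.1%), and Cyp2b10 and Cyp2b9 shared 158 of 217 (72.8%).

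Short motifs were searched on both strands of the whole RefSeq window around each start, and positions are relative to the RefSeq start. TTGCATAA, a sequence of the kind bound by bZIP factors of the C/EBP and PAR families, occurred in Cyp2a5 at -71, in Cyp2a4 at -70 and in Cyp2b10 at -58, and in 0.743% of 32851 promoters. CAAAGTCC, a core of the HNF4 element, occurred in Cyp2a5 at -56 and in Cyp2a4 at -55, and in 1.42% of promoters. AGGTCA, the core bound by many nuclear receptors, occurred in Cyp2a5, Cyp2a4, Cyp2b9 and Cyp2b13 (16.3% of promoters), and TATAAA in the 4 Cyp2a genes (13.6%). A direct repeat of AGGTCA with 4 bases between, TTCNNNGAA, TGACNNNGC and CACGTG were found in no member, against 0.0152%, 8.3%, 12.4% and 7.15% of promoters. The exact repeat of AGGTCA occurred in 5 of the 32851 promoters, so its absence was the likely outcome for any gene. Only exact letters near the start were searched, so imperfect or more distant elements were not assessed. These matches describe letters in a window and not bound sites.

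Total counts were 14065837 to 15342922 in norUDCA libraries and 12209706 to 13715026 in chow libraries. Abundance is given as CPM, in which TMM factors bring the libraries' counts to 1 size, and, for comparison between genes, as FPKM, the same value per kilobase of the gene length in the deposited table. edgeR's quasi-likelihood test called 1900 of 12378 tested genes (15.3%) with a Benjamini-Hochberg adjusted p below 0.05. The norUDCA diet gave 833 higher (6.73%) and 1067 lower genes (8.62%). This split turned to 2434 higher and 565 lower with scaling by total counts, and to 988 higher and 883 lower with upper quartile scaling. Of the 7 members, 4 had enough counts to be tested (Cyp2a5, Cyp2a4, Cyp2a12 and Cyp2b10). Of these, 1 was called higher (Cyp2a5) and 0 were called lower, against the backgrounds of 6.73% and 8.62%, and the count of called members was 1 in every alternative fit. Cyp2a5 was also past a 2-fold rise, as were 1.22% of tested genes. In edgeR without the filter, the unadjusted p was under 0.05 for 2 members on the higher side (Cyp2a5 and Cyp2b10) and 1 on the lower side (Cyp2a22), as it was for 10.1% of 22530 genes on the higher side and 9.41% on the lower side.

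Cyp2a5 and Cyp2b10 were the members with no overlap between the diets, higher under norUDCA, among the 4 tested, and 3.59% of tested genes had that pattern. The reverse pattern was seen in no tested member and in 4.07% of tested genes, which makes 7.66% in either direction. All 7 members took 0.353% of the counts under norUDCA and 0.121% under chow. The Cyp2a members summed to 3218 ± 873 CPM under norUDCA and 1213 ± 231 CPM under chow (SD, n = 6 each). The Cyp2b members summed to 147 ± 54.0 CPM under norUDCA and 57.7 ± 44.9 CPM under chow.

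**Figure D1:**
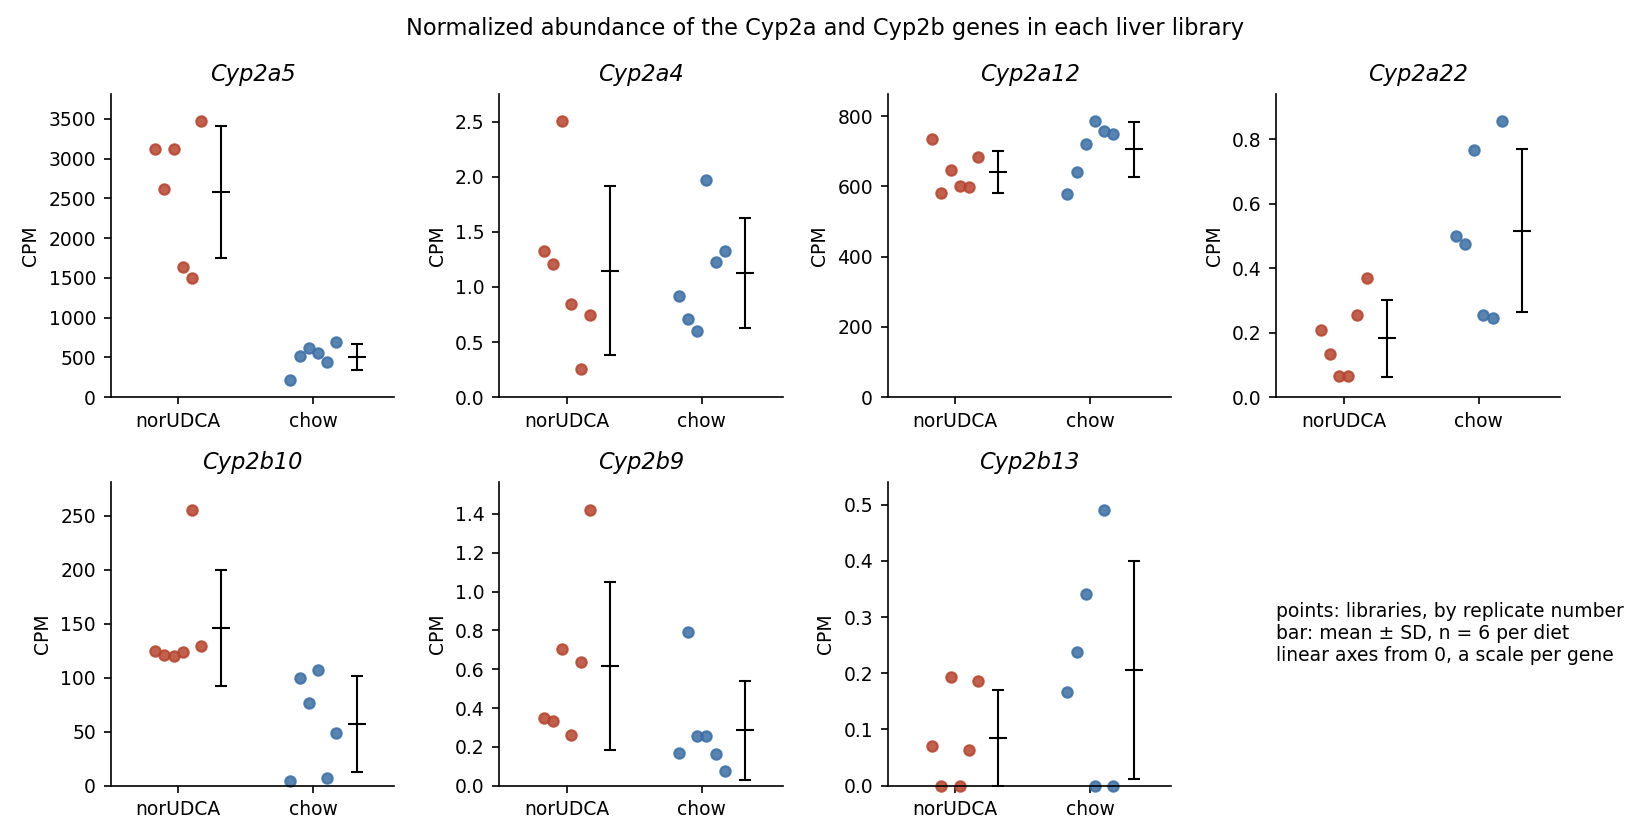
CPM of each member in each library (y axis, linear from 0, with its own scale per gene), norUDCA left of chow, with the mean ± SD of 6 libraries as a bar. Cyp2a5 lies at 1494 CPM or above in every norUDCA library and at 689.6 CPM or below in every chow library, and the Cyp2b10 points of chow 2 and chow 16 lie near 0.

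Cyp2a5 (ENSMUSG00000005547, chromosome 7, 26835305 to 26843548, plus strand) rose 5.08-fold under norUDCA. Its lowest, median and highest values were 1494, 2864 and 3472 CPM in norUDCA libraries, against 215, 536 and 689.6 CPM in chow libraries. Thus every norUDCA library lay above every chow library, and chow 2 was the lowest of all. The means were 2576 ± 829.8 CPM under norUDCA and 507 ± 167 CPM under chow (SD, n = 6 each), and the log2 fold change was 2.34 ± 0.27 (SE, edgeR adjusted p = 7.33e-05). Of the 12378 tested genes, 22 (0.178%) were called with a log2 fold change at least that of Cyp2a5. Leaving out 1 library at a time gave 2.19 to 2.47.

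Cyp2a4 (ENSMUSG00000074254, 26307190 to 26315088, plus strand) did not pass the test. It had 4 to 39 counts in norUDCA libraries, against 7 to 23 in chow libraries. Its lowest, median and highest values were 0.256, 1.02 and 2.50 CPM under norUDCA and 0.596, 1.07 and 1.97 CPM under chow, so the diets overlapped almost completely. The log2 fold change was 0.03 ± 0.43 (SE, edgeR adjusted p = 0.975), with either sign depending on the processing (-0.20 with limma-voom and sample weights). Cyp2a4 counts amounted to 0.0171% to 0.0802% of the Cyp2a5 counts in norUDCA libraries and 0.0955% to 0.427% in chow libraries. Of the 50-base windows of Cyp2a5 transcripts in GENCODE M21, 28.1% also occurred in Cyp2a4, and of those of Cyp2a4 36.1% occurred in Cyp2a5. With 100-base windows these shares were 8.08% and 11.2%. Reads of these genes can thus be hard to separate, and the sources used here do not say how such reads were counted.

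The ratio of Cyp2a5 to Cyp2a4 counts within a library, which is free of library scaling, differed between the diets. On the log2 scale, with 0.5 added to each count, it averaged 11.30 ± 0.79 under norUDCA and 8.78 ± 0.81 under chow (SD, n = 6 each), a difference of 2.52 (two-sided exact permutation p = 0.00216, adjusted p = 0.00866 over 4 ratios). That p is the smallest that regrouping the libraries can give. The ratio was 1231 to 5192 in norUDCA libraries and 224 to 977 in chow libraries, without overlap.

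Cyp2a12 (ENSMUSG00000060407, 27029090 to 27036807, plus strand) was the steadiest member. Its lowest, median and highest values were 580.2, 625 and 735 CPM under norUDCA and 578, 734 and 786 CPM under chow. The diets overlapped, with coefficients of variation of 9.31% under norUDCA and 11.3% under chow. The log2 fold change was -0.14 ± 0.09 (SE, edgeR adjusted p = 0.339), and scaling by total counts turned it to 0.01.

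The order of Cyp2a5 and Cyp2a12 differed between the diets. Per gene length, Cyp2a5 had 1279 ± 412 FPKM and Cyp2a12 387 ± 36.0 FPKM under norUDCA, whereas Cyp2a5 had 252 ± 83.0 FPKM and Cyp2a12 426 ± 48.0 FPKM under chow (SD, n = 6). Cyp2a5 exceeded Cyp2a12 in 6 of 6 norUDCA libraries and 0 of 6 chow libraries. Among 101 P450 genes in the table, Cyp2a5 ranked 3 by mean FPKM under norUDCA and 15 under chow, and Cyp2a12 ranked 12 under norUDCA and 7 under chow. Cyp2a5 supplied 78.9% of the CPM of the Cyp2a members under norUDCA (range 71.4% to 83.6%) and 40.7% under chow (27.1% to 47.9%).

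Cyp2a22 (ENSMUSG00000091867, 26931631 to 26939386, minus strand) had too few counts to be kept for the test over all genes. It had 17 counts over the norUDCA libraries (95% Poisson interval 9.90 to 27.2, counting error only) and 38 over the chow libraries (26.9 to 52.2). In 4 of 6 norUDCA libraries its CPM was below the lowest chow value. Fitted without the filter, its log2 fold change was -1.43 ± 0.51 (SE, edgeR adjusted p = 0.108), which did not pass the threshold. Of its 50-base transcript windows 20.2% also occurred in Cyp2a12, and of its 100-base windows 3.98%.

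**Figure D2:**
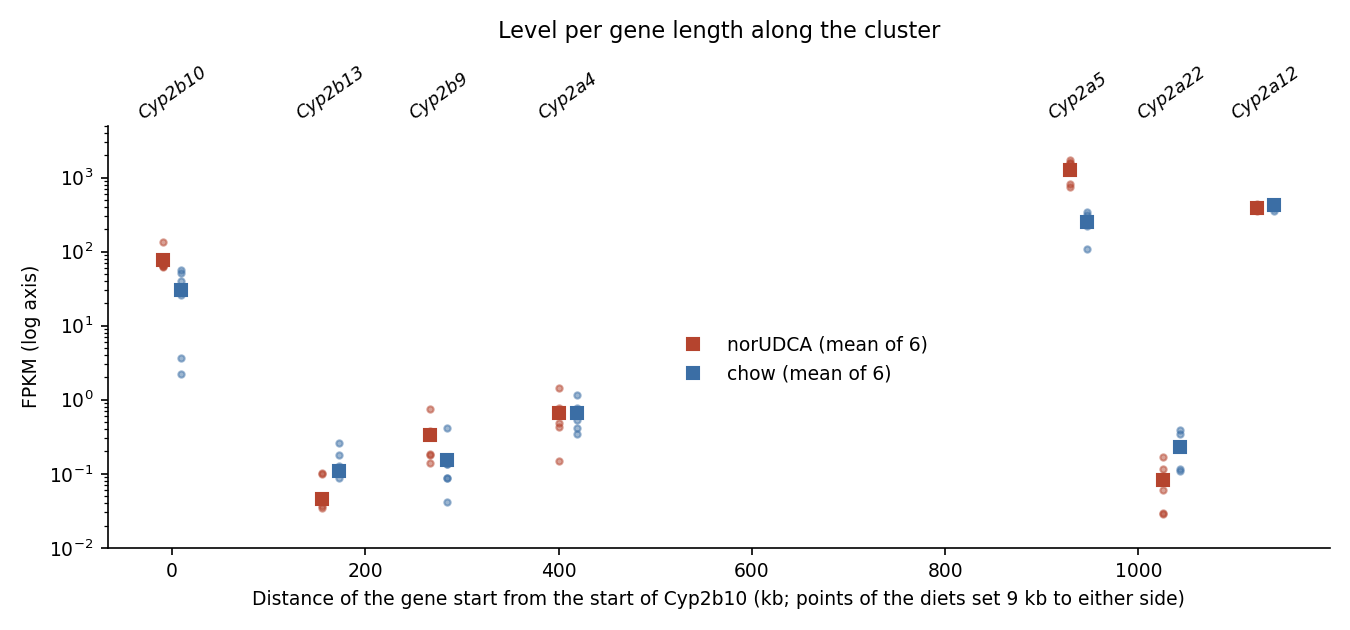
FPKM of each member (y axis, log scale) against the distance of its start from that of Cyp2b10 in kb (x axis), with norUDCA and chow set apart around each gene, small points for libraries and squares for means of 6. The 4 Cyp2b13 libraries at 0 cannot be drawn as points, and near-silent members lie between the abundant ones along the cluster.

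Cyp2b10 (ENSMUSG00000030483, 25897620 to 25926624, plus strand) was higher in every norUDCA library than in any chow library but did not pass the test over all genes. Its lowest, median and highest values were 120.3, 124 and 256 CPM under norUDCA, against 4.26, 62.7 and 107 CPM under chow. The norUDCA libraries lay close together apart from norUDCA 13 at 256 CPM, while chow 2 at 4.26 CPM and chow 16 at 7.04 CPM lay far below the other chow libraries, which held 48.9 to 107 CPM. The highest value was 2.13 times the lowest under norUDCA and 25.1 times under chow.

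The means of Cyp2b10 were 146 ± 53.9 CPM under norUDCA and 57.3 ± 44.8 CPM under chow (SD, n = 6 each), and the log2 fold change was 1.35 ± 0.57 (SE, edgeR adjusted p = 0.128). Adjusted p was 0.0948 to 0.229 with 1 library left out. A two-sided exact permutation test of mean log2 CPM, added after the data were seen and not adjusted over genes, gave a difference of 2.09 and p = 0.00216, the smallest possible. Cyp2b10 was the most abundant Cyp2b member by far, with 99.5% of their CPM under norUDCA and 97.0% under chow.

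Cyp2b9 (ENSMUSG00000040660, 26173411 to 26210661, plus strand) and Cyp2b13 (ENSMUSG00000040583, 26061495 to 26096196, plus strand) were near the limit of detection in these male livers and were not kept by the filter. Cyp2b9 had 58 counts over the norUDCA libraries (95% Poisson interval 44.0 to 75.0) and 21 over the chow libraries (13.0 to 32.1). Without the filter its log2 fold change was 1.11 ± 0.55 (SE, edgeR adjusted p = 0.272), and without norUDCA 20, which held 23 of the counts, it was 0.68, and without chow 3, which held 10, it was 1.74. Cyp2b13 had 8 counts under norUDCA (3.45 to 15.8) and 15 under chow (8.40 to 24.7), with 2 libraries at 0 in each diet, where 3 counts would equal 0.186 to 0.257 CPM. Its log2 fold change was -1.16 ± 0.85 (SE, edgeR adjusted p = 0.475).

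**Figure D3:**
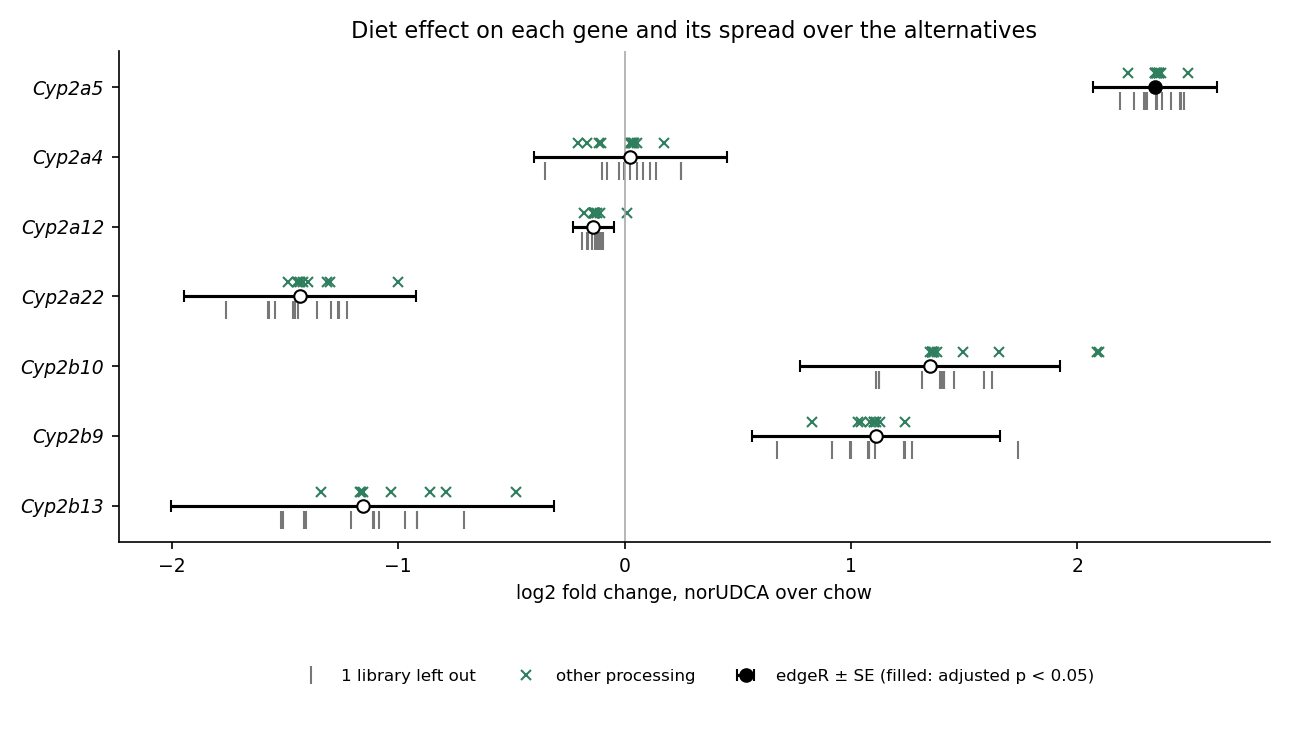
Log2 fold change of norUDCA over chow (x axis) for each member, with the edgeR value ± SE as a circle, values with 1 library left out as grey ticks and other processing as green crosses (sums over several members are not drawn). Cyp2a5 at 2.34 is the filled symbol, and Cyp2a4 values fall on both sides of 0.

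The remaining within-library ratios compared other pairs of members of the same subfamily, of unequal level. Cyp2b9 to Cyp2b13 averaged 2.63 ± 0.70 under norUDCA and 0.71 ± 1.55 under chow on the log2 scale (SD, n = 6 each; difference 1.92, exact permutation p = 0.0152, adjusted p = 0.026). It rests on few counts, the difference was 0.95 with 5 added to each count, and without norUDCA 10, norUDCA 12, chow 2 or chow 7 the adjusted p was 0.0519 to 0.0577. Cyp2a12 to Cyp2a22 averaged 11.73 ± 0.81 under norUDCA and 10.43 ± 0.75 under chow (difference 1.30, or 0.72 with 5 added to each count; exact permutation p = 0.0195, adjusted p = 0.026), and the adjusted p was 0.0548 to 0.0577 without norUDCA 10, norUDCA 12, chow 2, chow 3, chow 7 or chow 17. Cyp2b10 to Cyp2b9 averaged 7.97 ± 0.88 under norUDCA and 6.93 ± 1.82 under chow, and this difference of 1.04 did not exceed the spread between libraries (exact permutation p = 0.24, adjusted p = 0.24), although with 5 added to each count it was 1.66 (exact permutation, adjusted p = 0.0433).

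**Figure D4:**
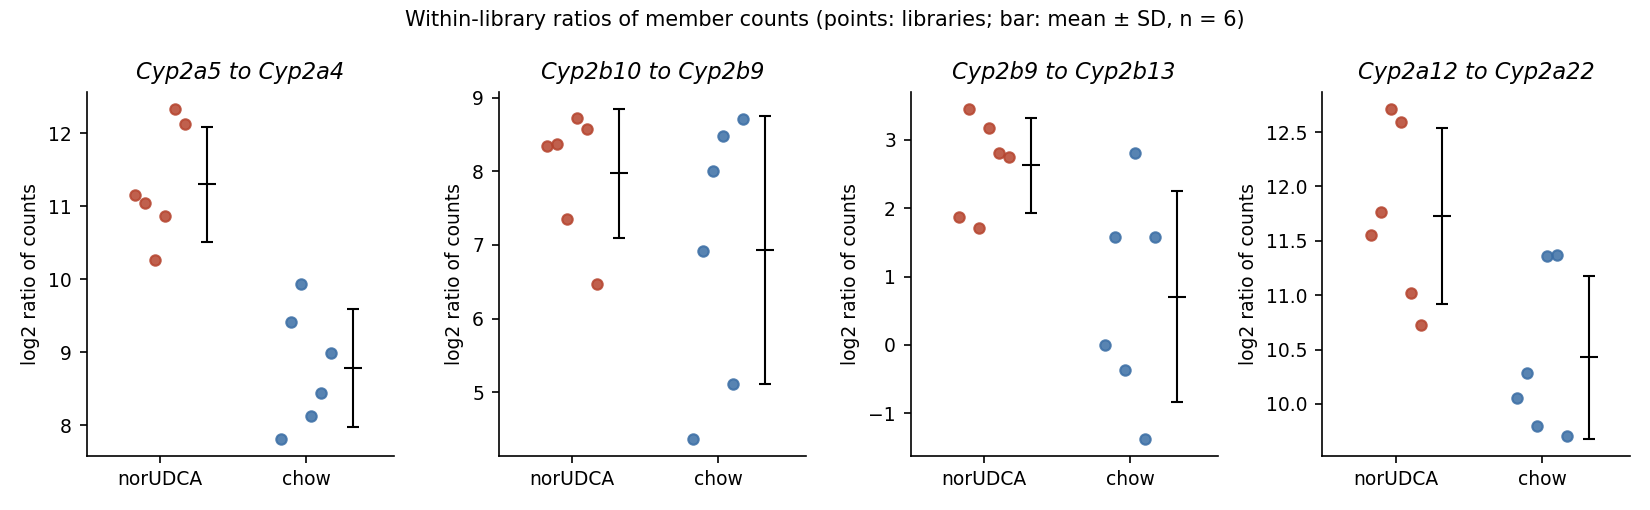
Log2 ratio of the counts of 2 members within each library (y axis), norUDCA left of chow, with the mean ± SD of 6 libraries as a bar. The diets do not overlap for Cyp2a5 to Cyp2a4 and overlap for the other ratios.

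By mean FPKM the order under norUDCA was Cyp2a5, Cyp2a12, Cyp2b10 at 76.2 ± 28.1, Cyp2a4 at 0.668 ± 0.446, Cyp2b9 at 0.330 ± 0.231, Cyp2a22 at 0.0823 ± 0.0538 and Cyp2b13 at 0.0455 ± 0.0457. Under chow it was Cyp2a12, Cyp2a5, Cyp2b10 at 29.9 ± 23.4, Cyp2a4 at 0.655 ± 0.291, Cyp2a22 at 0.232 ± 0.114, Cyp2b9 at 0.152 ± 0.137 and Cyp2b13 at 0.110 ± 0.103 (SD, n = 6). The top 3 and Cyp2a4 did not overlap with their neighbours above them in either diet, and each gene from Cyp2a4 downward overlapped with the next. Cyp2a5 exceeded Cyp2a4, which has a near-identical start region, by 1917 times in mean FPKM under norUDCA and 385 times under chow.

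Members were compared across the libraries of 1 diet at a time, in 42 relations over 6 libraries each. None passed the adjustment, the smallest adjusted p of Pearson's r being 0.35 (Cyp2a4 and Cyp2b10 under norUDCA, r = -0.83, rho = -0.83, exact permutation p = 0.00833, r = -0.65 without the 2 libraries farthest from the median). Cyp2a5 and Cyp2b10 had r = -0.66 and rho = -0.26 under norUDCA (exact permutation p = 0.104, adjusted p = 0.758) and r = 0.80 and rho = 0.49 under chow (exact permutation p = 0.0319, adjusted p = 0.447). Without the 2 farthest libraries r was 0.73 under norUDCA and 0.78 under chow, so the sign under norUDCA rested on those libraries.

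The genes most like each member were those with the highest value of the lower of the within-diet correlations, among 11533 genes over 6 libraries per diet. For Cyp2a5 they were Ugt2b36, a glucuronosyltransferase (r = 0.96 under norUDCA and 0.94 under chow), 3110057O12Rik and Marcksl1-ps4. For Cyp2b10 they were Pik3cd (r = 0.97 and 0.95), Acer2 and Hcls1, for Cyp2a12 Uri1, Rab43 and Fam65b, and for Cyp2a4 Tex30, Eif2ak1 and Dennd2d. These are extremes picked from many genes and share the depth of their libraries.

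Genes around the members were read from lists. Over all tested genes 6.73% were called higher and 8.62% lower, the background for the counts of each list and marker set below. Small counts near these shares are not read as a shift of a list. Nr1i3, which encodes CAR, rose 2.55-fold, with 90.3 ± 8.597 CPM under norUDCA and 35.3 ± 6.16 CPM under chow (edgeR adjusted p = 2.37e-06). Nr1i2, which encodes the related receptor PXR, had 145 ± 15.4 CPM under norUDCA and 118 ± 15.2 CPM under chow and did not pass (edgeR adjusted p = 0.0531). Of the 12 receptors and partners, 1 was higher and 2 lower, the chaperone Hsp90aa1 and the glucocorticoid receptor gene Nr3c1. Of 29 CAR and PXR targets outside the cluster 24 were higher and 0 lower, with a median log2 fold change of 0.89 against a median near 0 over all tested genes (-0.001). They included Gstm3 (30.5-fold), Cyp2c55 (16.7-fold), Cyp3a11 (7.26-fold) and Gstm1 (5.23-fold).

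In the cluster itself, 6 of 13 listed genes were tested and 2 rose. Beside Cyp2a5 this was Cyp2g1, a P450 known from the olfactory epithelium, with 6.94 ± 1.21 CPM under norUDCA and 2.47 ± 0.59 CPM under chow (2.79-fold, edgeR adjusted p = 9.64e-05). Cyp2f2 had 853 ± 133 CPM under norUDCA and 917 ± 189.6 CPM under chow (edgeR adjusted p = 0.673), and Cyp2b23 was at 0 in all libraries. Of 11 tested NRF2 genes 5 were higher and 0 lower, among them Nqo1 (3.83-fold), Ugdh (2.71-fold), Gclc (1.58-fold) and Gclm (1.38-fold), all enzymes of detoxification or glutathione supply. Nfe2l2, the gene of NRF2 itself, did not pass (edgeR adjusted p = 0.0640).

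Most male-biased genes fell. Of 18 male-biased liver genes 0 were higher and 14 lower (median log2 fold change -1.36), including Serpina1e (0.140-fold), Mup1 (0.173-fold), Mup20 (0.272-fold) and Nudt7 (0.397-fold), though Mup and Serpina1 genes have near-identical copies whose reads are uncertain. Of 20 female-biased genes outside the cluster 7 were tested, and 2 were higher (Abcd2 and Fmo2) and 1 lower (Cyp17a1). Of 15 growth hormone and sex-bias regulators 4 were lower, among them Ghr (log2 fold change -0.34), Stat5b (-0.43) and Hnf4a (0.821-fold), while Bcl6, a transcriptional repressor, was 2.09-fold higher (edgeR adjusted p = 0.00592).

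Of 14 tested clock genes 3 were higher and 2 lower. Dbp, a PAR bZIP factor known to regulate Cyp2a4 and Cyp2a5 in mouse liver, had 61.2 ± 26.1 CPM under norUDCA and 16.1 ± 7.29 CPM under chow (3.81-fold, edgeR adjusted p = 0.0027). Per3 was 2.90-fold higher, and Nfil3 (0.372-fold) and Clock (0.657-fold) were lower. Of 9 tested fasting response genes 0 were higher and 2 lower (Igfbp1 and Tat), and 3 of 12 pericentral genes (Gulo, Glul and Lgr5) and 0 of 9 periportal genes were lower. The part of the time of day or feeding in the member values was not tested.

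**Figure D5:**
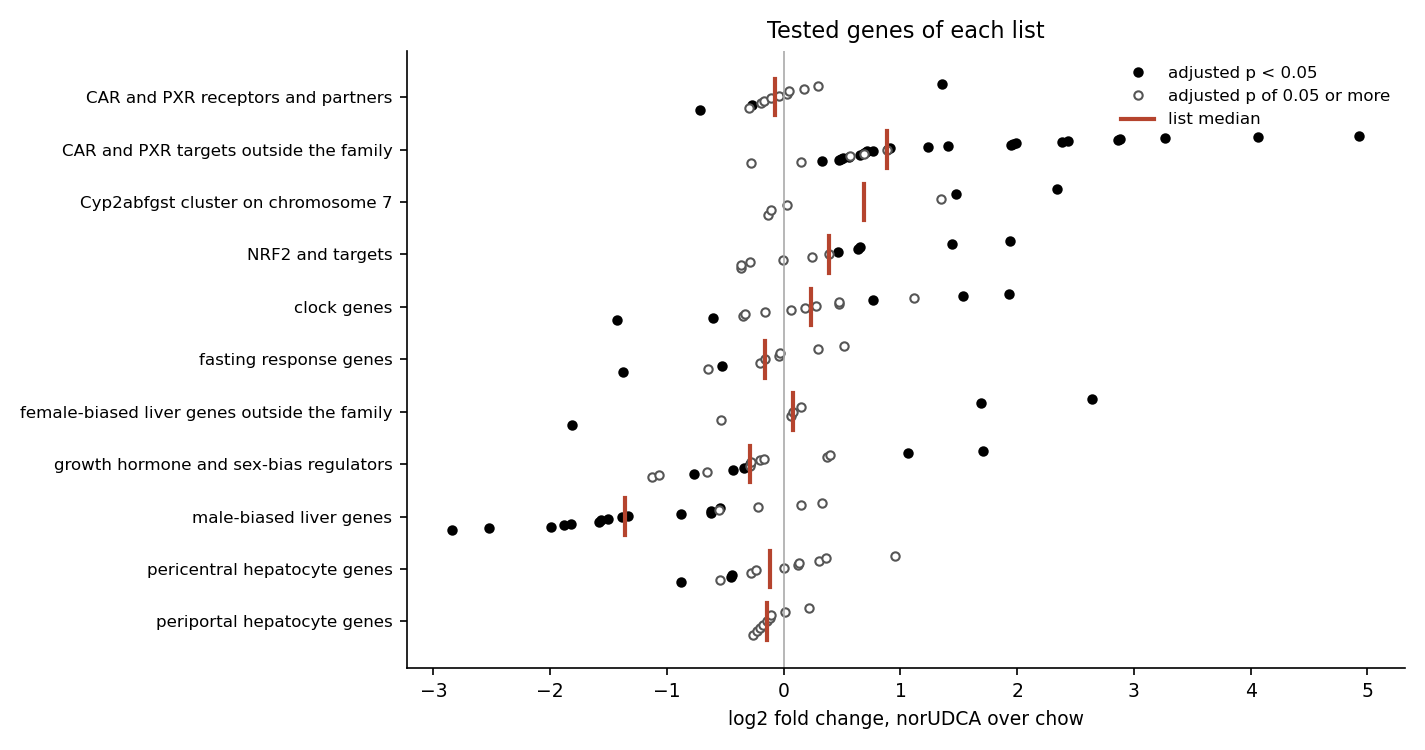
Log2 fold change of norUDCA over chow (x axis) of each tested gene in each gene list, filled where the edgeR adjusted p was under 0.05, with the list median as a bar. The CAR and PXR targets lie mostly above 0 (24 of 29 higher) and the male-biased genes mostly below 0 (14 of 18 lower).

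Markers of other liver cells were read beside these values. Hepatocyte markers summed to 72064 to 86771 CPM in norUDCA libraries and 70993 to 89289 CPM in chow libraries, with 4 of 8 lower. Kupffer cell and macrophage markers summed to 69.2 to 145 CPM under norUDCA and 116 to 289 CPM under chow, with 4 of 5 lower. Of the cholangiocyte markers 2 of 5 were lower (32.7 to 41.0 CPM under norUDCA, 32.8 to 102 CPM under chow), and 2 of 5 stellate markers were higher (61.8 to 95.6 CPM under norUDCA, 47.4 to 67.8 CPM under chow). Both tested neutrophil markers of 4 were lower (0.837 to 3.32 CPM under norUDCA, 1.59 to 11.2 CPM under chow). No endothelial marker (of 5) and no erythroid marker (of 4) was called, and no lymphocyte marker had enough counts to be tested. The part of these cells in the member values was not tested.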

How the data were processed

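Liver RNA was isolated with TRIzol, and NEBNext libraries were sequenced on the Illumina system. CASAVA, STAR and DESeq2 are listed in the submitters' processing notes. The sources used here do not give their versions, the genome build, the read length or the strand handling. The authors deposited raw read counts per gene for 35275 genes, and 9 other deposited tables, which hold the authors' own comparisons of the diets and of other groups, were not used. Gene positions are those of the deposited table, and 3 of 7 members had identical positions in GENCODE M21 (GRCm38).

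Counts were tested with edgeR 4.0.16 in R 4.3.3 (quasi-likelihood, TMM, filterByExpr with a minimum count of 10, Benjamini-Hochberg over all 12378 genes kept). Cyp2a22, Cyp2b9 and Cyp2b13, which the filter removed, were fitted without it, a choice made after their counts were seen. Within-library ratios were tested by exact permutation over all regroupings of the libraries. Alternatives used DESeq2 1.42.0 and limma 3.58.1, other scalings and filters, thinning, summed related members and each library left out. The permutation test of single members was added after the data were seen. Members and lists were chosen with earlier results of these data known. Named genes were all members, 6 regulators (Nr1i3, Nr1i2, Nfe2l2, Hnf4a, Stat5b and Ghr), up to 4 called genes of lowest p per list and the 3 genes most like each tested member; others named beside a small count were chosen after their values were seen. Of the genes that this rule takes, 1 is left out of the text. The pipeline was tested on simulated data. Poisson intervals cover counting error only.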

Additional observations from a re-analysis of the deposited data

Results flagged for a closer look

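In 22 groups of 6 values, a library was looked for that stood far from the others, which chance gives in about 1 in 20 groups, and 2 were found. Cyp2b10 in norUDCA 13 was 255.8 CPM, against 129.3 CPM in the next highest norUDCA library, a gap of 0.934 of the whole range. Cyp2b9 in chow 3 was 0.790 CPM, against 0.257 CPM in the next highest chow library, a gap of 0.749 of the range.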

How the results depend on the processing

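No paired analysis was possible because the diets share no replicate numbers. Cyp2a5 kept its call in every alternative run (log2 fold change 2.19 to 2.49). The number of genes called was 1405 to 1982 with 1 library left out, and was 2999 when libraries were scaled by total counts (2434 higher and 565 lower), which raises the median log2 fold change by 0.15. Upper quartile scaling called 1871 genes and also turned the split, to 988 higher and 883 lower. Cyp2a4 changed sign with limma-voom (-0.17; -0.20 with sample weights), thinned libraries (-0.11) and the permutation test (-0.11), ran from -0.35 to 0.25 with 1 library left out, and was 2.34 when summed with Cyp2a5, whose counts make up nearly the whole sum. Cyp2a12 was 0.01 under scaling by total counts, and Cyp2b13 was 1.36 when summed with Cyp2b9 and Cyp2b10. Under the permutation test, not adjusted over genes, Cyp2b10 (2.09) and Cyp2a22 (-0.999) passed 0.05, whereas Cyp2b10 passed in no fit over all genes (adjusted p 0.0504 to 0.229). With a pseudocount of 5 in place of 0.5, the difference in the Cyp2b10 to Cyp2b9 ratio was 1.66 and passed, that in Cyp2b9 to Cyp2b13 was 0.95 (1.92 with 0.5) and that in Cyp2a12 to Cyp2a22 was 0.72 (1.30 with 0.5), and the last 2 kept their calls. With 1 library left out, the Cyp2b9 to Cyp2b13 ratio was 1.51 to 2.34 and the Cyp2a12 to Cyp2a22 ratio 1.103 to 1.501, and both lost their call in some of these. Under all alternatives 235 values stayed the same, 11 reversed, 10 lost and 4 gained their call, and 1 count moved. The gains were Cyp2b10 and Cyp2a22 under the permutation test, Cyp2a4 when summed with Cyp2a5, and the Cyp2b10 to Cyp2b9 ratio. For Cyp2b10 and Cyp2a22 an unadjusted p was set against an adjusted one. The Cyp2a4 sum is nearly all Cyp2a5, so only the ratio gained its call on a like measure. For fold changes and ratios, the same means an unchanged direction and call. For counts of called genes it means a similar size, without regard to direction. The causes were not tested. Depth limits Cyp2b9, Cyp2b13, Cyp2a22 and Cyp2a4. Read sharing between related members limits the pairs to an extent that depends on the read length, which is not given.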
